A study of Mus musculus with 24 samples.

Results

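The genes described here are the cytosolic ribosomal protein genes of the mouse, taken by name: protein-coding genes whose symbol is Rpl or Rps followed by a number and at most the letters a, l, x or y and a further number, with Rplp0, Rplp1, Rplp2 and Rpsa added. This rule found 84 of the 29716 genes of the count table, 52 with large subunit names and 32 with small subunit names. Of these, 82 passed the filter on low counts and were tested, and the 2 that did not are Rpl3l and Rpl10l. The name rule reads no measured value.

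The data are 24 RNA-seq libraries, made from CD31+ cells of E10.5 embryos of C57BL/6J mice. Each embryo had been injected into the heart with anti-human IgG, as a control, or with anti-Dll4, which binds a Notch ligand of endothelium, and then incubated at 37 °C and 5% CO2 for 5 h. In every group the medium contained the injected antibody at 5 µg/ml, hydrocortisone at 10 µM and IL-3 at 10 ng/ml. The sorted cells are Kit- CD41+ CD45-, Kit+ CD45+ or Kit+ CD45-, and each of these 3 populations has 4 libraries under IgG and 4 under anti-Dll4, which makes 6 groups. The number of embryos per library is not in the labels, so p-values measure the spread between these libraries, which may in part be technical. In bulk libraries such as these, fewer cells of a type and less RNA per cell cannot be told apart.

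A ribosome has a large and a small subunit, each built of ribosomal RNA and a set of proteins that are needed in near equal numbers. Because growth needs ribosomes, cells spend much of their translation on them, and the mRNAs of these proteins begin with a stretch of pyrimidines (the TOP motif), through which mTOR and Larp1 set how strongly they are translated. Blood formation is sensitive to this supply: loss of 1 copy of some of these genes causes Diamond-Blackfan anaemia, in which red cell precursors fail, and free Rpl5, Rpl11 and Rpl23 bind Mdm2 and so act on p53.

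Runs of pyrimidines were looked for near the annotated starts of the ribosomal protein genes. In RefSeq promoters (GRCm38.p6) the 30 bases around the start, 15 before and 15 after, were read for 64 of the 84 genes. A run of at least 8 C or T was present in 25 of the 64 (39.1%), against 11.8% of 10132 other tested protein-coding genes and 11.9% of all 27025 promoters. The windows below are those of some genes named in the results, with Rpl35, which has a run of 18 bases, as an example of a long one. They do not stand for the family. Not shown are Rplp0, Rps2 and Rpsa, with longest runs of 5, 6 and 5 bases, and Rpl15 and Rpl27a, with 17 and 19. The longest run is in capitals, and every window is written 5′ to 3′ on the gene's strand.
Rpl35: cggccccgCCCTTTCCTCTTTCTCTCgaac
Rpl14: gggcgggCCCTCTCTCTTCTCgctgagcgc
Rpl4: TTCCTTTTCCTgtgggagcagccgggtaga
Rplp2: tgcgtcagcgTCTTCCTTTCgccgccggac
Rpl22l1: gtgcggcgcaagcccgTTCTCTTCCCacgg
Rps27l: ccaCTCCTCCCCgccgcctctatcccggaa
Rpl12: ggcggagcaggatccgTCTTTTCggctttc
Rpl6: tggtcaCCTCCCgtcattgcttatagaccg
Rps13: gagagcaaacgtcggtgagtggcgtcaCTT
Rpl7l1: gtgaggCTgcgcaagcgcagtagctgaagc
The first 6 windows hold a run of 8 or more and the last 4 do not: their longest runs are 7 (Rpl12), 6 (Rpl6), 3 (Rps13) and 2 (Rpl7l1) bases. The windows lie at chr2:39005117-39005146 on the minus strand (Rpl35), chr9:120571502-120571531 on the plus strand (Rpl14), chr9:64173372-64173401 on the plus strand (Rpl4), chr7:141447636-141447665 on the plus strand (Rplp2), chr3:28805493-28805522 on the plus strand (Rpl22l1) and chr9:66946071-66946100 on the plus strand (Rps27l). Those without a run lie at chr2:32961697-32961726 on the plus strand (Rpl12), chr5:121204486-121204515 on the plus strand (Rpl6), chr7:116334176-116334205 on the minus strand (Rps13) and chr17:46782642-46782671 on the minus strand (Rpl7l1). A match describes these letters only. A run was counted wherever it lay in the window, so it need not be part of the annotated mRNA. In the windows of Rpl4 and Rps27l it lies wholly before the annotated start. The annotated start need not be the base where transcription begins in these cells, and a window without a run does not say that the mRNA lacks one.

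The libraries held 8718351 to 11379830 counts each and detected 18063 to 21093 genes. The sort markers followed the labels for the mean level under IgG. Ptprc, which encodes CD45, stood at 82.3 CPM (counts scaled to a common library size) in the Kit+ CD45+ group, against 0.81 for Kit+ CD45- and 0 for Kit- CD41+ CD45-, and Itga2b, which encodes CD41, had its highest mean, 540 CPM, for Kit- CD41+ CD45-. Globin transcripts, whose share differs between the groups, took 16.8% to 49.3% of the counts in the 8 Kit+ CD45- libraries, 4.18% to 14.1% in the 8 Kit- CD41+ CD45- libraries and 0.00816% to 0.0226% in the 8 Kit+ CD45+ libraries. Summed over all 22 erythroid markers, the level spanned 155819 to 950695 CPM for Kit+ CD45-, 42347 to 162536 for Kit- CD41+ CD45- and 254 to 400 for Kit+ CD45+ libraries; in the last, Slc4a1, the red cell anion exchanger, was at 0. CPM here are scaled with TMM factors, which set the bulk of genes equal between libraries, so they can exceed the plain share of a library. The 3 libraries of replicate 1 under anti-Dll4 carried Y-linked Ddx3y, with 523 to 1244 counts; of the other libraries, Kit+ CD45+ anti-Dll4 replicate 3 had 15 and the rest 0. On the TMM scale, counts of family genes called between populations under anti-Dll4 are also given without these 3 libraries.

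The ribosomal protein genes took 1.35% to 2.33% of the counts of a library. Per kb of transcript, Rpl4 (1750 CPM per kb, 2692 CPM) and Rps14 (1340 CPM per kb, 800.1 CPM) were among the genes with the highest mean levels over the 24 libraries. Rpl4 is a large subunit protein that lines the exit tunnel for the new chain, and Rps14 is a small subunit protein. The lowest were Rpl10l (0.0321 CPM per kb), Rpl3l (0.0495 CPM per kb) and Rpl24 (0.856 CPM per kb). Rpl10l and Rpl3l are paralogs known for expression in testis and in muscle and heart; Rpl10l had 5 counts in all, over 3 libraries, and Rpl3l 17 counts over 8 libraries. Rpl24 is a core large subunit protein, and its 145 counts over 24 libraries are low for one. The median gene stood at 81.1 CPM, 4 genes exceeded 1000 CPM and 18 were under 10 CPM. The 5 highest took 42.9% of all counts of the family and Rpl4 alone 16.1%.

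The counts of genes whose proteins enter the ribosome in near equal numbers differed by orders of magnitude, and they moved with how much of a transcript is found in no other gene. Ribosomal protein genes have many processed pseudogenes, and reads that fit several places cannot be assigned to one. Of the 50-base windows of the annotated transcripts, a median of 45.0% per gene was found in no other annotated gene. The 18 genes with under 20% of their windows unique had a median of 15.5 CPM per kb, the 31 genes between 20% and 50% had 82.3, the 23 between 50% and 80% had 272, and the 12 at 80% or more had 112. The last class includes Rps15a and Rps20, read from annotated transcripts of 5130 and 3706 bases, where the family's median is 774.5. A long annotated transcript lowers CPM per kb. The class also holds the paralogs Rpl10l, Rpl3l and Rpl39l, with 92.4%, 100% and 100% of their windows unique. Rpl10l and Rpl3l are the lowest genes per kb, so their near absence enters the median of this class. Rpl24 had 18.3% of its windows unique, Rps27 1.4% and Rpl5 6.16%. The sources used here do not say how reads with several matches or the strand were treated, so levels of genes with little unique sequence are uncertain, and comparing such genes with each other is not possible. Genes named as ribosomal protein pseudogenes, 218 in number, held counts equal to 0.554% to 0.742% of those of the family.

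**Figure D1:**
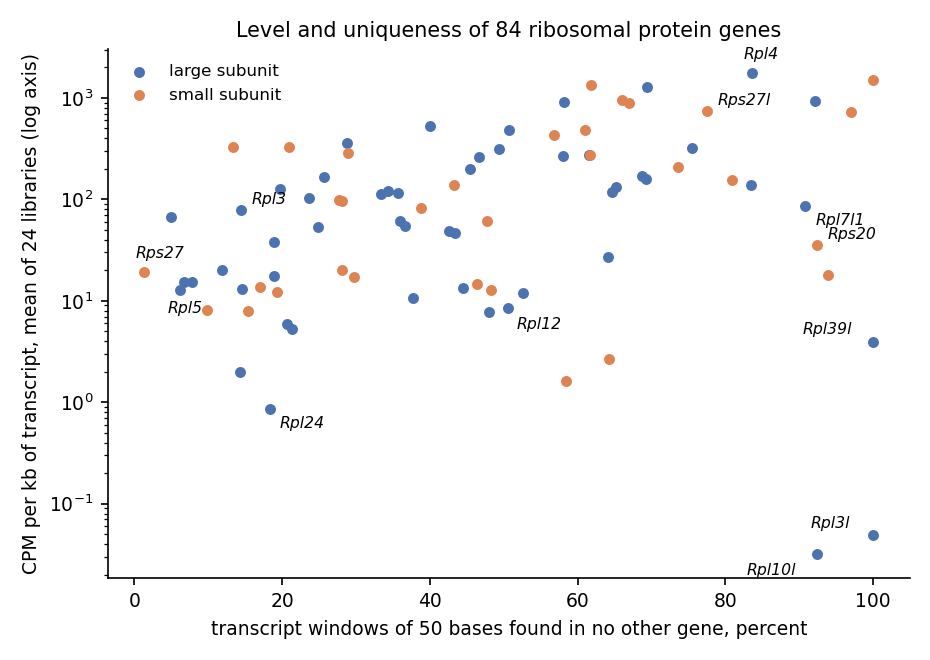
Mean level over 24 libraries (y axis, CPM per kb of transcript, log scale) against the percent of 50-base transcript windows found in no other gene (x axis) for the 84 genes, large subunit in blue and small subunit in orange. Genes with under 20% unique windows sit lowest as a class, with a median of 15.5 CPM per kb, against 272 CPM per kb between 50% and 80%.

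Across libraries the genes moved together. Among the 52 genes with at least 30 CPM, the first principal component held 90.7% of the variance of log2 CPM over the 24 libraries. The median correlation over their 1326 pairs was 0.93, and 0.93 again after the group means were removed. These correlations are a description over 24 libraries; the genes share the library, its depth, its scaling factor and a short transcript length (median 774.5 bases). Other tested protein-coding genes with a mean of at least 30 CPM, without globin genes, were grouped by the median length of their protein-coding transcripts. The median deviation of the 1173 such genes under 1000 bases from their own means ran from -0.31 to 0.24 log2 units over the libraries. For the 1005 such genes of 3000 bases or more it ran from -0.11 to 0.08. The part of transcript length in the shared movement was not tested. Genes that moved apart from the rest over the 24 libraries were Rpl15, with a median correlation of -0.34 with the other genes, Rpl7l1 with -0.02 and Rpl27a with 0.35. After the group means were removed, these were -0.13, 0.53 and 0.64, so within groups Rpl7l1 and Rpl27a moved in part with the family. Rpl15, a large subunit protein mutated in some patients with Diamond-Blackfan anaemia, ranged only from 28.2 to 56.6 CPM over all libraries.

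The summed level of the family was as follows. In Kit+ CD45- cells it was 13921, 20745, 20182 and 18094 CPM under IgG and 24718, 20627, 16812 and 31125 CPM under anti-Dll4. In Kit- CD41+ CD45- cells it was 13155, 14824, 15125 and 16879 CPM under IgG and 16273, 15442, 14861 and 17684 CPM under anti-Dll4. In Kit+ CD45+ cells it was 11599, 13459, 13876 and 15778 CPM under IgG and 19499, 13488, 14210 and 13459 CPM under anti-Dll4. On this scale Kit+ CD45- cells had the highest means, 18236 ± 3094 CPM under IgG and 23320 ± 6123 under anti-Dll4 (SD, n = 4), but under each antibody the lowest of their libraries lay within the ranges of both other populations. Library descriptions give the 3 populations of 1 antibody and replicate a shared leading number, whose meaning they do not state. Within each of these 8 sets of 3 libraries, the Kit+ CD45- library had the highest summed CPM.

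The order of the populations turned with the denominator. As a plain percent of all counts, Kit+ CD45+ cells were highest, with 1.74% ± 0.151 under IgG and 1.89% ± 0.299 under anti-Dll4, against 1.63% ± 0.0806 and 1.70% ± 0.153 in Kit+ CD45- cells and 1.48% ± 0.0927 and 1.49% ± 0.0727 in Kit- CD41+ CD45- cells (SD, n = 4). As a percent of the counts outside the globin genes, Kit+ CD45- cells were highest again, with 2.26% ± 0.287 under IgG and 2.68% ± 0.444 under anti-Dll4, against 1.74% ± 0.151 and 1.89% ± 0.299 in Kit+ CD45+ cells and 1.59% ± 0.134 and 1.69% ± 0.0949 in Kit- CD41+ CD45- cells. Removing globin genes takes almost nothing from the Kit+ CD45+ libraries, so their values hardly change. Within Kit+ CD45- cells the library with the most globin, anti-Dll4 replicate 4 at 49.3%, had the highest summed level, and IgG replicate 1, with the least at 16.8%, had the lowest. In plain percent of counts the same libraries were close, at 1.63% and 1.53%. Whether globin content plays a part in the family's level was not tested. The ratio of large to small subunit counts ran from 1.09 to 1.33 over the 24 libraries.

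**Figure D2:**
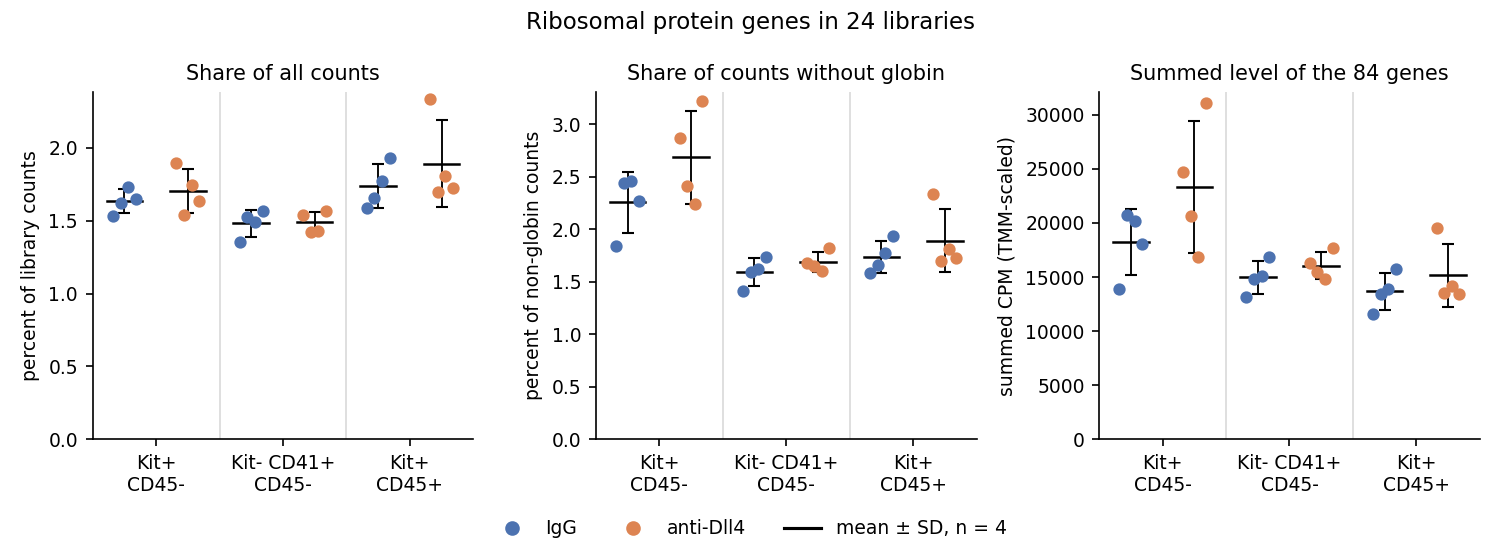
Summed ribosomal protein genes in each library as a percent of all counts, as a percent of counts outside globin genes, and as TMM-scaled CPM (y axes), by population (x axis), with IgG in blue, anti-Dll4 in orange, and bars for the mean ± SD of 4 libraries. Kit+ CD45+ cells are highest in the first panel (means 1.74% and 1.89%) and Kit+ CD45- cells in the other panels (2.26% and 2.68% outside globin genes).

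**Figure D3:**
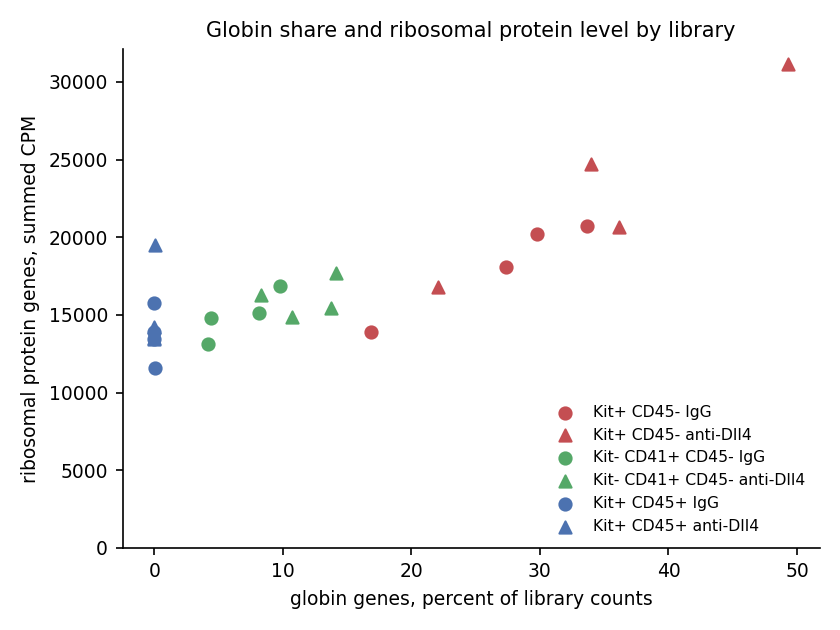
Summed level of the family (y axis, CPM) against the globin share of the library (x axis, percent of counts), 1 point per library, coloured by population, circles for IgG and triangles for anti-Dll4. The point at the upper right is Kit+ CD45- anti-Dll4 replicate 4, with 49.3% globin and 31125 CPM.

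The first comparison asks whether the populations differ under the control antibody. Tests used edgeR's quasi-likelihood F-test over all 15618 tested genes with Benjamini-Hochberg adjustment, and a gene is called at an adjusted p under 0.05. Between Kit+ CD45- and Kit- CD41+ CD45- cells, 2 of the 82 genes were called higher and 0 lower, where 14% of all tested genes were called higher and 13.8% lower. They are Rpl12, a protein of the stalk base, and Rpl3, a protein next to the peptidyl transferase centre. The median log2 fold change of the 82 genes was 0.27, that of all tested genes 0.06, and under library totals alone, without TMM factors, 0 genes were called higher and 2 lower, where 9.43% and 15% of all tested genes were, with medians of 0.12 and -0.06. DESeq2 called 5 genes, all higher, and 30.6% of all genes in either direction. Without Kit- CD41+ CD45- IgG replicate 1, edgeR called 0, and without Kit+ CD45- IgG replicate 1, the library with the lowest globin share, 8.

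Rpl12 had 14.9, 12.2, 11.9 and 9.06 CPM for Kit+ CD45-, 5.65, 6.11, 7.01 and 10.2 for Kit- CD41+ CD45- and 10.1, 9.84, 12.5 and 12.4 for Kit+ CD45+ under IgG. Under anti-Dll4 it had 10.9, 12.6, 11.8 and 16.2 CPM, 7.53, 5.14, 7.1 and 9.9 CPM, and 12.7, 10.4, 11.7 and 14.2 CPM in the same order. Kit- CD41+ CD45- cells were lowest under both antibodies; under anti-Dll4 their libraries all lay below those of both other populations, and under IgG replicate 4 reached into the others' range. The log2 fold change of Kit+ CD45- over Kit- CD41+ CD45- cells was 0.73 (SE 0.23, adjusted p = 0.02 in edgeR) under IgG and 0.79 (adjusted p = 0.012 in edgeR) under anti-Dll4, and that of Kit+ CD45+ over Kit- CD41+ CD45- cells 0.63 (adjusted p = 0.034) and 0.72 (adjusted p = 0.016). Rpl3 followed in part. Under IgG it had 92, 128, 121 and 112 CPM in Kit+ CD45- cells against 83.7, 95.2, 85.6 and 93.8 for Kit- CD41+ CD45-, so that only the lowest Kit+ CD45- library overlapped, with a log2 fold change of 0.34 (SE 0.11, adjusted p = 0.027 in edgeR). Only 14.4% of the windows of Rpl3 are unique to it.

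In Kit+ CD45+ against Kit+ CD45- cells under IgG, 0 of the 82 genes were called higher and 9 lower, where 10% of all tested genes were called higher and 9.18% lower. The median log2 fold change was -0.38, against 0.04 for all tested genes. Under library totals alone the direction turned: 10 genes were called higher and 0 lower (29% and 4.87% of all tested genes) with a median of 0.12 against 0.52 for all tested genes. A change of scaling shifts all genes of a library alike, so the gap between these medians hardly depends on it. The 9 genes were Rpl14, Rplp0, Rpl4, Rpl32, Rps4x, Rpl41, Rps2, Rpl6 and Rps3a1, 6 of the large and 3 of the small subunit. None of the 24 genes of Diamond-Blackfan anaemia was among them. DESeq2 called 17 genes lower and 21.8% of all genes in either direction. The count moved with single libraries. Without Kit+ CD45- IgG replicate 1, the low-globin library, it was 24. Without Kit+ CD45- IgG replicate 2 or 3, or Kit+ CD45+ IgG replicate 1, it was 0. With a block for the leading numbers, whose meaning is not stated, 0 genes were called higher and 29 lower. Of all tested genes, 1723 and 1611 were.

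Rpl4 had 2319, 3373, 3083 and 2948 CPM for Kit+ CD45-, 2300, 2480, 2459 and 2532 for Kit- CD41+ CD45- and 2095, 2206, 2227 and 2522 for Kit+ CD45+ under IgG. The first Kit+ CD45- library lay with the other populations and the remaining 3 above them. The log2 fold change of Kit+ CD45+ over Kit+ CD45- cells was -0.37 (SE 0.11, adjusted p = 0.02 in edgeR), and 0.13 under library totals alone. Rpl14, a large subunit protein, had 363, 659, 647 and 560 CPM in Kit+ CD45- cells and 295, 320, 362 and 386 in Kit+ CD45+ cells, a log2 fold change of -0.71 (SE 0.21, adjusted p = 0.017 in edgeR) with an overlap again at the first Kit+ CD45- library.

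Rplp0, Rplp1 and Rplp2 form the P stalk, the flexible arm on which elongation factors act. Rplp0 had 998, 1674, 1466 and 1354 CPM for Kit+ CD45-, 974, 1108, 1062 and 1168 for Kit- CD41+ CD45- and 735, 955, 946 and 1079 for Kit+ CD45+ under IgG. Its log2 fold change between Kit+ CD45+ and Kit+ CD45- cells was -0.56 (SE 0.17, adjusted p = 0.019 in edgeR). Rplp1 had -0.58 and did not pass (adjusted p = 0.053). Of the 3 stalk genes, 1 was called under IgG.

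The remaining pair under IgG is Kit+ CD45+ against Kit- CD41+ CD45- cells. Here 3 of the 82 genes were called higher (Rps13, Rpl12 and Rpl7l1) and 4 lower (Rpl6, Rpl21, Rpl36al and Rpl13a), where 19.7% of all tested genes were called higher and 17.5% lower. The median was -0.12, against 0.05 for all tested genes; under library totals alone 15 genes were called higher and 1 lower (40.9% of all tested genes in either direction), with a median of 0.24, against 0.41 for all tested genes. Without Kit+ CD45+ IgG replicate 1 the calls were 3 higher and 1 lower, and without Kit- CD41+ CD45- IgG replicate 4 they were 3 and 2.

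Rps13, a small subunit protein close to the subunit interface, had 13.8, 9.76, 7.39 and 12.5 CPM for Kit+ CD45+, 4.36, 5.22, 5.01 and 5.1 for Kit- CD41+ CD45- and 10.4, 6.83, 7.62 and 6.42 for Kit+ CD45- under IgG. Under anti-Dll4 it had 9.97, 14.2, 14.6 and 11.3 CPM, 3.92, 4.23, 7.31 and 6.23 CPM, and 6.42, 2.9, 8.1 and 8.53 CPM in the same order. Kit+ CD45+ libraries were all above those of Kit- CD41+ CD45- cells under both antibodies. The log2 fold change was 1.14 (SE 0.29, adjusted p = 0.0037 in edgeR) under IgG and 1.21 (adjusted p = 0.0023) under anti-Dll4, and both stayed past the threshold in all 40 alternative settings. Only 17.0% of its windows are unique, so which gene the reads came from is uncertain.

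Rpl6, a large subunit protein, went the other way. It had 93.7, 105, 104 and 114 CPM for Kit+ CD45+, 139, 165, 161 and 191 for Kit- CD41+ CD45- and 111, 163, 155 and 142 for Kit+ CD45- under IgG. Under anti-Dll4 it had 140, 103, 106 and 98.1 CPM in Kit+ CD45+ cells against 180, 156, 158 and 186 for Kit- CD41+ CD45-. All Kit+ CD45+ libraries lay below all Kit- CD41+ CD45- libraries under both antibodies, with log2 fold changes of -0.65 (SE 0.16, adjusted p = 0.0019 in edgeR) and -0.61 (adjusted p = 0.0035).

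Under anti-Dll4 many more genes of the family were called in the pairs with Kit+ CD45- cells. In Kit+ CD45- against Kit- CD41+ CD45- cells, 38 of the 82 genes were called higher and 0 lower, where 14.7% of all tested genes were called higher and 15.2% lower. The median was 0.53, against 0.07 for all tested genes; under library totals alone, 6 genes were called higher and 1 lower (7.32% and 20.1% of all tested genes), with a median of 0.19 against -0.19 for all tested genes. Large and small subunits shared in it, with 22 of 50 and 16 of 32 genes. The 24 genes of Diamond-Blackfan anaemia gave 13, the 3 P stalk genes 3, and the 49 genes with under 50% unique windows 17, against 21 of the 33 with more. In 18 genes every Kit+ CD45- library was above every Kit- CD41+ CD45- library, where this held for 12.6% of all tested genes.

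The globin share moved with this contrast: 34%, 36.2%, 22.1% and 49.3% in the Kit+ CD45- libraries and 8.34%, 13.7%, 10.7% and 14.1% in the Kit- CD41+ CD45- libraries. Its part in the result was not tested. Without Kit+ CD45- anti-Dll4 replicate 4, 8 genes were called; without its replicate 1, 22; without Kit- CD41+ CD45- anti-Dll4 replicate 2 or 3, 21 and 19. Leaving out the 3 libraries with Y-linked reads gave 21.

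Rps20 is a small subunit protein and a gene of Diamond-Blackfan anaemia, with 92.4% of the windows of its 3706-base annotated transcript unique. It had 201, 148, 144 and 272 CPM in Kit+ CD45- cells against 114, 110, 98.1 and 111 for Kit- CD41+ CD45-. All 4 lay above, with a log2 fold change of 0.82 (SE 0.18, adjusted p = 0.0013 in edgeR). Rpl4 had 3431, 3579, 2931 and 4170 CPM against 2560, 2596, 2555 and 2666, again without overlap, and a fold change of 0.44 (adjusted p = 0.0037). Rpl4 had -0.06 when libraries were scaled to the summed family. Rpsa, which doubles as a laminin receptor at the cell surface, had 0.72 (adjusted p = 0.0024) and Rps2, a small subunit protein at the mRNA entry, 0.63 (adjusted p = 0.0044). Rps19, the gene most often mutated in Diamond-Blackfan anaemia, had 0.66 (adjusted p = 0.027). The stalk genes Rplp0, Rplp1 and Rplp2 had 0.60, 0.59 and 0.58 (adjusted p = 0.0078, 0.036 and 0.041).

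Rps27a is made as a fusion with ubiquitin. It had 17.4, 12.7, 12.1 and 18.4 CPM for Kit+ CD45-, 7.83, 9.17, 7.73 and 9.45 for Kit- CD41+ CD45- and 20.5, 11.9, 16.2 and 16.3 for Kit+ CD45+. Kit- CD41+ CD45- cells were lowest with no overlap, with log2 fold changes over them of 0.82 (SE 0.25, adjusted p = 0.016 in edgeR) and 0.92 (adjusted p = 0.0052). Under IgG, where its levels overlapped, none of its comparisons passed.

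Between Kit+ CD45+ and Kit+ CD45- cells under anti-Dll4, 2 genes were called higher (Rps13 and Rpl5) and 45 lower, where 16.6% of all tested genes were called higher and 12.6% lower. The median was -0.59, against 0.10 for all tested genes. Under library totals alone 20 genes were called higher and 0 lower (48% and 4.24% of all tested genes), with a median of 0.18 against 0.79 for all tested genes. All 9 genes called in this pair under IgG (9 of 9) were among the 47 of 82 called here (9 of 47). The libraries differ, but 1 fit over all 24 gave both sets of calls, with shared dispersion estimates. The calls are therefore not independent. Large subunit genes gave 26 lower of 50 and small subunit genes 19 of 32; the stalk gave 3 of 3. Without Kit+ CD45- anti-Dll4 replicate 4 the count was 18, and without replicate 4 of all groups 5. Without the 3 libraries with Y-linked reads it was 49. The Kit+ CD45+ libraries held at most 0.0226% globin and the Kit+ CD45- libraries at least 22.1%.

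Rplp0 had 1871, 1619, 1239 and 2375 CPM in Kit+ CD45- cells and 1205, 964, 1012 and 935 in Kit+ CD45+ cells. These 4 against 4 did not overlap, and the log2 fold change was -0.79 (SE 0.17, adjusted p = 0.0011 in edgeR). Rpl14 had 802, 672, 496 and 1077 CPM against 522, 341, 329 and 334, overlapping at Kit+ CD45+ replicate 1, with -1.0 (adjusted p = 0.00086). Rpl4 had 2573, 2269, 2398 and 2323 CPM in Kit+ CD45+ cells, all under the Kit+ CD45- libraries, with -0.56 (adjusted p = 0.00054), and 0.18 under library totals alone. Rpsa had -0.88 (adjusted p = 0.0004) and Rps2 -0.71 (adjusted p = 0.0017), the latter 0.06 under library totals alone.

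Of the 3 genes whose proteins bind Mdm2, Rpl23 followed the family under anti-Dll4 and Rpl5 did not. Under this antibody Rpl23 was higher in Kit+ CD45- than in Kit- CD41+ CD45- cells (0.54, adjusted p = 0.035 in edgeR) and lower in Kit+ CD45+ than in Kit+ CD45- cells (-0.59, adjusted p = 0.021). Under anti-Dll4 Rpl5 had 26.8, 16.6, 21.8 and 17.3 CPM in Kit+ CD45- cells and 31.6, 28.5, 36.9 and 35.1 in Kit+ CD45+ cells, all above, with a log2 fold change of 0.68 (SE 0.20, adjusted p = 0.014 in edgeR). Rpl11 was called in none of the comparisons and stayed between 6.61 and 12 CPM. Only 6.16% of the windows of Rpl5 are unique.

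Between Kit+ CD45+ and Kit- CD41+ CD45- cells under anti-Dll4, 4 genes were called higher (Rps13, Rps27a, Rpl12 and Rpl24) and 2 lower (Rpl6 and Rpl36al), where 20.4% of all tested genes were called higher and 17.3% lower. The median was -0.05, against 0.06 for all tested genes; under library totals alone 43 genes were called higher and 0 lower (34.6% and 9.31% of all tested genes), with a median of 0.38 against 0.49 for all tested genes. Rpl24 rests on 0 to 1.47 CPM per library. Its call was lost in 31 of 40 alternative settings, and that of Rpl36al in 18. Rps13, Rpl12, Rpl6 and Rpl36al were called in this pair under both antibodies. Without the 3 libraries with Y-linked reads 2 genes were called higher and 2 lower.

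**Figure D4:**
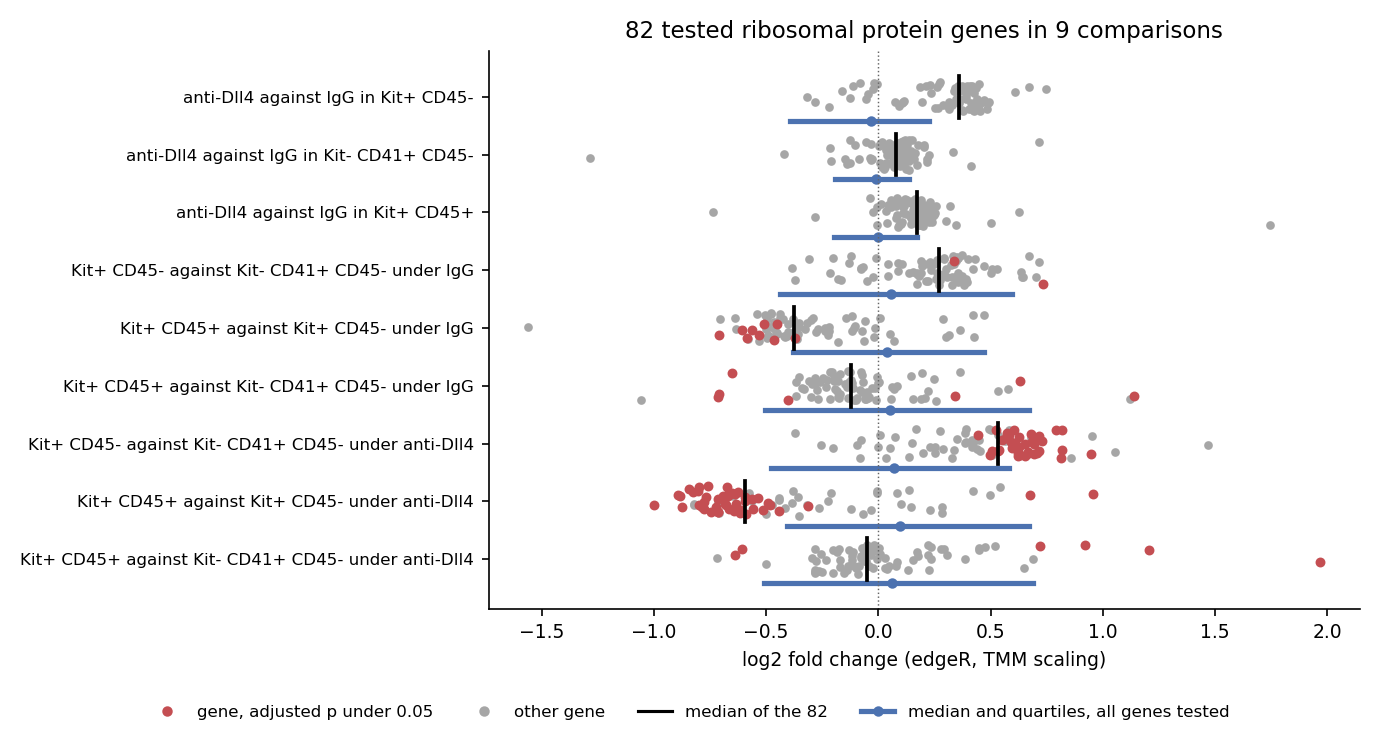
Log2 fold changes (x axis) of the 82 tested genes in the 3 antibody and 6 population comparisons (y axis), with red points for adjusted p under 0.05, a black bar for the median of the 82, and blue marks for the median and quartiles of all 15618 tested genes. The pairs with Kit+ CD45- cells under anti-Dll4 hold the most red points, 38 and 47; under library totals alone, the median of the family turns above 0 in the 4 pairs with Kit+ CD45+ cells.

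The paralogs can replace a core protein in some tissues and were compared with their partners. Rpl36al and Rpl36a encode near-identical proteins. Rpl36al had 15.4, 16.5, 19 and 23.8 CPM in Kit+ CD45+ cells against 29.2, 29.4, 29.7 and 34.1 for Kit- CD41+ CD45- under IgG, with no overlap and a log2 fold change of -0.71 (SE 0.25, adjusted p = 0.026 in edgeR). Rpl36a, with 14.5% unique windows, was called in none of the comparisons on the TMM scale, and neither were Rps27, Rpl10 and Rpl39l. When libraries were scaled to the summed family instead, Rps27 was called higher in Kit+ CD45+ cells in 2 pairs (0.68 over Kit- CD41+ CD45- cells under IgG, adjusted p = 0.04 in edgeR, and 1.12 over Kit+ CD45- cells under anti-Dll4, adjusted p = 0.0013). Rpl22 and its paralog Rpl22l1 moved alike between Kit+ CD45+ and Kit+ CD45- cells under anti-Dll4, with -0.68 (adjusted p = 0.0056) and -0.62 (adjusted p = 0.02). Rps27l, a p53 target in textbook accounts, had -0.72 (adjusted p = 0.021) there. Per kb it stood at 737 CPM, but its partner Rps27 has 1.4% unique windows, so their levels cannot be compared.

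Rpl7l1, which takes part in ribosome assembly and is not a stable part of the mature ribosome, did not follow the family. It had 283, 234, 254 and 273 CPM for Kit+ CD45+, 196, 200, 182 and 244 for Kit- CD41+ CD45- and 200, 237, 206 and 205 for Kit+ CD45- under IgG. Under anti-Dll4 it had 291, 215, 261 and 251 CPM, 188, 186, 204 and 254 CPM, and 255, 196, 173 and 212 CPM in the same order. Kit+ CD45+ cells had the highest mean under both antibodies, with overlap in each pair, and 1 test passed: 0.34 (SE 0.13, adjusted p = 0.046 in edgeR) over Kit- CD41+ CD45- cells under IgG. This call was lost in 26 of 40 alternative settings, among them DESeq2 and the omission of single libraries. Its partner Rpl7 had -0.49 between Kit+ CD45+ and Kit+ CD45- cells under anti-Dll4 (adjusted p = 0.041).

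**Figure D5:**
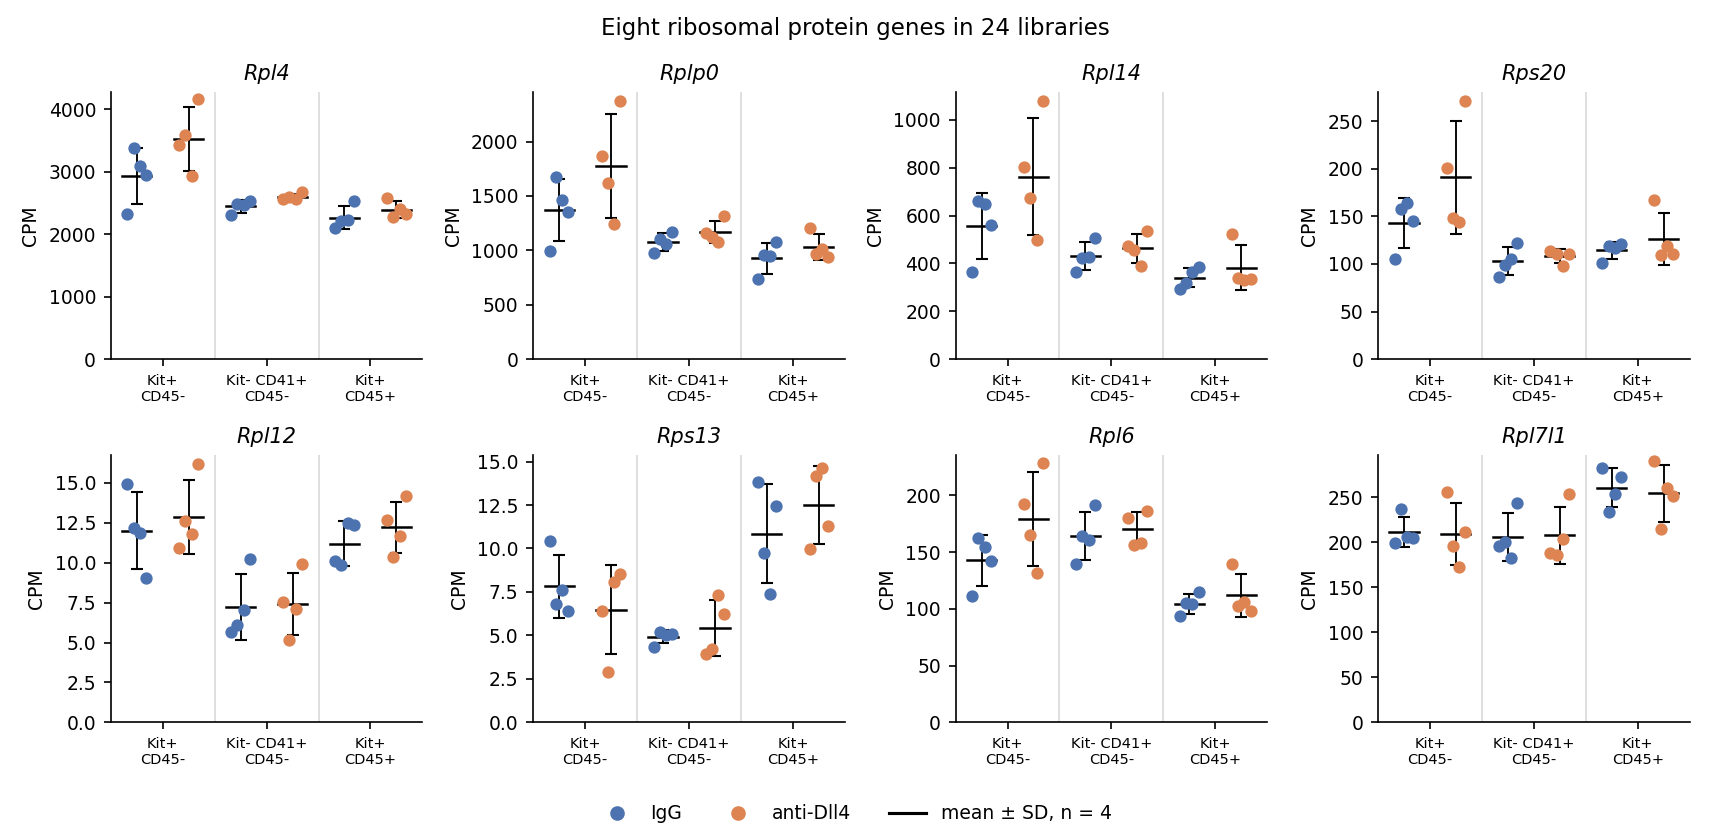
CPM (y axes) of Rpl4, Rplp0, Rpl14, Rps20, Rpl12, Rps13, Rpl6 and Rpl7l1 in each library by group (x axis), with the mean ± SD of 4 libraries. Rpl4, Rplp0, Rpl14 and Rps20 peak in Kit+ CD45- anti-Dll4 replicate 4 (Rpl4 4170 CPM), whereas Rps13 is highest in Kit+ CD45+ cells and Rpl6 lowest there.

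To see which genes changed their place within the family, the libraries were also scaled to the summed ribosomal protein genes, which sets the family's level equal. The medians then lay between -0.02 and 0.02, and the calls were 0 higher and 4 lower between Kit+ CD45- and Kit- CD41+ CD45- cells under IgG (26.6% of all 15558 genes tested on this scale were called), 5 and 1 between Kit+ CD45+ and Kit+ CD45- cells (24.4%), and 6 and 2 between Kit+ CD45+ and Kit- CD41+ CD45- cells (32.3%). Under anti-Dll4 they were 1 and 5 (32.4%), 14 and 2 (42.7%), and 10 and 2 (32.2%). Since most other genes shift on this scale too, the counts say only how the genes stand to each other.

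Rpl6 was lower within the family in all 4 comparisons between a Kit+ population and Kit- CD41+ CD45- cells: with -0.48 and -0.45 in Kit+ CD45- cells and -0.51 and -0.52 in Kit+ CD45+ cells, under IgG and anti-Dll4. Rpl7l1 was higher in Kit+ CD45+ cells in all 4 comparisons with them: 0.71 and 0.88 over Kit+ CD45- cells and 0.49 and 0.39 over Kit- CD41+ CD45- cells. Rps13 stood 1.30 and 1.33 higher in Kit+ CD45+ than in Kit- CD41+ CD45- cells. Rpl31, a large subunit protein at the tunnel exit, was lower in Kit+ CD45- cells than in Kit- CD41+ CD45- cells (-0.65 and -0.63) and higher in Kit+ CD45+ than in Kit+ CD45- cells (0.45 and 0.62). Rpl5 behaved likewise, with 0.80 and 1.25 in the latter pair, and Rpl14 fell there by 0.28 and 0.37 on the log2 scale. All of these passed at an adjusted p under 0.05 in edgeR.

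The second comparison asks what anti-Dll4 did within each population. In Kit+ CD45- cells, edgeR called 0 of the 82 genes, where 0% of all tested genes were called. At an unadjusted p under 0.05, 22 of the 82 passed, where 11.1% of all tested genes did, and DESeq2 called 0 of the 74 it gave an adjusted p and 0.755% of all genes. The fold change was above 0 for 70 of the 82 genes, with a median of 0.36 against -0.03 for all tested genes. The smallest adjusted p values were those of Rpsa (log2 fold change 0.48, SE 0.17, adjusted p = 0.337 in edgeR), Rpl22 (0.45, adjusted p = 0.397) and Rpl4 (0.27, adjusted p = 0.404). Rpl4 had 2319, 3373, 3083 and 2948 CPM under IgG and 3431, 3579, 2931 and 4170 under anti-Dll4, so the groups overlapped.

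The globin share of the same libraries was 16.8%, 33.7%, 29.8% and 27.4% under IgG and 34%, 36.2%, 22.1% and 49.3% under anti-Dll4, and its part in the difference was not tested. With the log2 globin level (TMM-scaled CPM) as a covariate the median was 0.165, and under library totals alone 0.07 (-0.27 for all tested genes). Leaving out 1 library, or 1 replicate number in all groups, moved the TMM-scale median between 0.18 and 0.54. In plain percent of counts the family took 1.53%, 1.62%, 1.73% and 1.65% under IgG and 1.89%, 1.54%, 1.74% and 1.63% under anti-Dll4.

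In Kit- CD41+ CD45- cells, 0 of the 82 genes were called (0% of all tested genes) and 0 had an unadjusted p under 0.05, where 2.79% of all tested genes did. The median was 0.08, against -0.01, and -0.18 with the log2 globin level as a covariate. In Kit+ CD45+ cells, 0 were called (0.0064% of all tested genes) and only Rpl24 had an unadjusted p under 0.05, where 2.9% of all tested genes did. The median was 0.17, against 0.00, and -0.07 to 0.32 when 1 library, or 1 replicate number in all groups, was left out. There, replicate 1 under anti-Dll4 stood apart, with 19499 CPM of summed family against 13459 to 14210 in the other 3 libraries. DESeq2 called 0 of 82 in each of these populations, and 0.0128% and 0.0833% of all genes.

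For the mean of the 3 effects, edgeR called 0 genes (0% of all tested genes); 21 had an unadjusted p under 0.05, where 8.39% of all tested genes did, and the median was 0.20 against -0.02. That median was 0.03 to 0.28 when libraries were left out, 0.03 with the log2 globin level as a covariate and 0.06 under library totals alone. For the difference of the effect between populations, 0 genes were called (0.0256% of all tested genes) and only Rpl24 had an unadjusted p under 0.05, where 4.04% did. DESeq2 called 0 in both, and 0.205% and 0.16% of all genes. That more genes passed in the population pairs under anti-Dll4 than under IgG is therefore a difference between counts of calls, and the test of the difference called none of these genes.

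Lists of other genes of the pathway give the setting. In the order of pairs used above, these shares of all tested genes were called higher and lower. On the TMM scale they were 14% and 13.8%, 10% and 9.18%, and 19.7% and 17.5% under IgG. Under anti-Dll4 they were 14.7% and 15.2%, 16.6% and 12.6%, and 20.4% and 17.3%. Library totals alone gave 9.43% and 15%, 29% and 4.87%, and 40.9% in either direction under IgG. Under anti-Dll4 they gave 7.32% and 20.1%, 48% and 4.24%, and 34.6% and 9.31%. Ribosome biogenesis, here 40 factors that process ribosomal RNA and assemble subunits, had more genes called higher than lower in both Kit+ populations over Kit- CD41+ CD45- cells, but how many depended on the scaling. On the TMM scale, 15 of 40 were called higher and 0 lower in Kit+ CD45- cells under IgG (median 0.43) and 24 and 0 under anti-Dll4 (median 0.60). In Kit+ CD45+ cells 17 were called higher and 1 lower (median 0.45) under IgG and 18 and 1 (median 0.45) under anti-Dll4, where the ribosomal protein genes had medians of -0.12 and -0.05. Library totals alone left 2 and 6 higher in Kit+ CD45- cells and gave 32 and 33 higher and 1 lower in Kit+ CD45+ cells, under IgG and anti-Dll4. Examples under IgG in Kit+ CD45- cells are Wdr75, a small subunit assembly factor (0.60, adjusted p = 0.00044 in edgeR), and Nop56 and Nop58, core proteins of the box C/D particles (0.60 and 0.52). Between Kit+ CD45+ and Kit+ CD45- cells, 1 of 40 was called higher (Rrp1b, 0.56) and 2 lower (Bysl, -1.11, and Wdr75, -0.33) under IgG, and 1 and 6 under anti-Dll4 (medians -0.02 and -0.10), whereas library totals alone gave 10 and 1, and 17 and 1.

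Translation factors and other TOP mRNAs, 23 genes, gave 2 higher and 0 lower between Kit+ CD45- and Kit- CD41+ CD45- cells under IgG, Pabpc1, the poly(A) binding protein (0.45, SE 0.13, adjusted p = 0.013 in edgeR), and Eif3l (0.46, adjusted p = 0.041), and 12 and 0 under anti-Dll4. Between Kit+ CD45+ and Kit+ CD45- cells they gave 0 and 1 (Snhg1, -0.65) under IgG and 0 and 9 under anti-Dll4, among them Pabpc1 (-0.56) and Eef2, the translocation factor (-0.50), whereas library totals alone gave 4 and 0, and 14 and 0. Between Kit+ CD45+ and Kit- CD41+ CD45- cells 2 (Npm1 and Eif4b) under IgG and 3 under anti-Dll4 were called higher and 0 lower. Library totals alone gave 12 and 18 higher there, and 3 rather than 12 between Kit+ CD45- and Kit- CD41+ CD45- cells under anti-Dll4. Of the ribosomal subunits outside the name rule, Fau was called in 0 of the 6 population comparisons and Rack1, a scaffold protein of the small subunit, in 1, between Kit+ CD45+ and Kit+ CD45- cells under anti-Dll4 (-0.47, adjusted p = 0.019).

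Genes of Myc and mTOR control, 21 in number, gave 2 higher and 6 lower between Kit+ CD45- and Kit- CD41+ CD45- cells under IgG. Myc, which drives ribosome synthesis, was higher (1.26), and its antagonist Mxd1 (-2.87), its partner Max (-1.19) and the mTOR activator Rheb (-1.14) were lower. The mean level of Myc under IgG was 161 CPM in Kit+ CD45- cells, 67.2 in Kit- CD41+ CD45- cells and 230 in Kit+ CD45+ cells. Between Kit+ CD45+ and Kit+ CD45- cells the list gave 2 and 1 under IgG and 4 and 3 under anti-Dll4 (9 and 0, and 10 and 1, under library totals alone), with Myc at 1.01 and Larp1, the TOP mRNA repressor, at -1.03, and between Kit+ CD45+ and Kit- CD41+ CD45- cells 2 and 6 under IgG and 2 and 5 under anti-Dll4, where library totals alone turned the larger side to 4 and 3, and 4 and 2. In the remaining pair under anti-Dll4 it gave 2 and 5. Of the 15 p53 targets, 3 and 1, 1 and 1, and 4 and 2 were called higher and lower under IgG and 2 and 1, 2 and 4, and 5 and 1 under anti-Dll4, in the order used above. Under library totals alone these were 1 and 1, 3 and 0, and 5 and 0 under IgG and 0 and 1, 8 and 0, and 6 and 0 under anti-Dll4. These counts are of 15 genes and are not read apart from the shares of all tested genes given above. In the 3 antibody comparisons edgeR called 0 of the 102 genes of these 5 lists, and DESeq2 called 0. At an unadjusted p under 0.05 in edgeR, 7, 3 and 3 of them passed for Kit+ CD45-, for Kit- CD41+ CD45- and for Kit+ CD45+. Of all tested genes, 11.1%, 2.79% and 2.9% did.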

How the data were processed

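RNA-seq counts of 24 libraries in 6 groups of 4 were used. Per the labels' protocols, long-distance PCR amplified polyA cDNA of the sorted cells; reads carry no molecular identifiers. The submitters' processing notes name STAR, HTSeq, DESeq2, FastQC, CASAVA 1.4 and build mm10; the treatment of strand, of reads with several matches and the annotation release: not given in the sources used here. In the deposited count table the authors give raw counts per gene. The deposited log2 table, used for gene names, types and positions, holds values that equal log2(count / size factor + 1) to within 5.15e-14, so its values were normalized by the authors; 1 of its library columns was not used here. Replicate libraries were compared and 0 pairs were identical.

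All tests used the counts with edgeR 4.0.16 (R 4.3.3): TMM factors, filterByExpr by group, 1 coefficient per group over all 24 libraries (18 residual degrees of freedom, 15618 genes tested, biological coefficient of variation 0.343), the quasi-likelihood F-test and Benjamini-Hochberg adjustment over all tested genes. The standard error (SE) of a log2 fold change was taken from it and the F statistic. The script was tested on simulated data. CPM are scaled with TMM factors. Transcript lengths and unique 50-base windows come from 1 well-supported protein-coding transcript per gene in GENCODE M21 (mm10), promoter windows from RefSeq.

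Compared were the antibodies within each population, the mean of the 3 effects, their difference, and 3 pairs of populations under each antibody. Alternatives were DESeq2 1.42.0, other scalings, no filter on low counts, a test against a fold of 1.5, a globin covariate, a replicate block, and leaving out libraries. Named genes are the paralogs and their partners, the P stalk, the ubiquitin fusion, the Mdm2-binding genes, the 5 with the smallest p per direction and comparison, the 3 highest and lowest per kb, and those farthest from the family's median; Rpl15, Rpl27a, Rps19 and the genes of small counts of calls were chosen after their values were seen. Some results are not reported here. The genes and lists were chosen with earlier results of these data known.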

Additional observations from a re-analysis of the deposited data

Results flagged for a closer look

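Of 126 groups of 4 libraries that were checked, 10 held a library far from the other 3, by the gap to its nearest neighbour as a share of the group's range; chance gives about 1 in 20. In Kit+ CD45+ anti-Dll4 replicate 1, 4 values stood apart: the summed family at 19499 CPM (13459 to 14210 in the other 3), Rps3, a small subunit protein, at 1602 CPM (1120 to 1146), Rps27l at 498 CPM (243 to 273) and Rpl14 at 522 CPM (329 to 341). In plain percent of counts this library was also the highest of all, at 2.33%, with Y-linked Ddx3y at 1244 counts, and without it the Kit+ CD45+ IgG libraries gave 14 genes lower than Kit+ CD45- cells.

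In Kit+ CD45+ IgG replicate 4, Rpl3 stood at 117 CPM (99.9 to 101 in the others) and Rpl21, a large subunit protein, at 13.6 CPM (7.46 to 8.18). In Kit- CD41+ CD45- IgG, Rpl36al stood at 34.1 CPM in replicate 4 (29.2 to 29.7 in the others) and Rpl39l at 8.68 CPM in replicate 2 (0.111 to 0.513). In Kit+ CD45- IgG, Rpl22l1 stood at 57.2 CPM in replicate 1 (74.3 to 75.7 in the others) and Rpl7l1 at 237 CPM in replicate 2 (200 to 206).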

How the results depend on the processing

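In the antibody comparisons, their mean and their difference, 0 genes were called by edgeR in every alternative run and by DESeq2. In the population pairs, library totals alone and the scale of the summed family changed the direction of some results. The family's median kept its sign in every pair with upper-quartile factors, with DESeq2 and with globin genes left out. With globin genes left out it was 0.28 and 0.57 in Kit+ CD45- over Kit- CD41+ CD45- cells, under IgG and anti-Dll4. The medians of all tested genes were 0.07 and 0.11. Between Kit+ CD45+ and Kit+ CD45- cells the family's was -0.42 and -0.66, against -0.01 and 0.01. With Kit- CD41+ CD45- cells as the base, library totals alone gave 2 calls in Kit+ CD45- cells under IgG, all lower, and 7 under anti-Dll4 (6 higher), and in Kit+ CD45+ cells 16 (15 higher) and 43 (all higher); between Kit+ CD45+ and Kit+ CD45- cells they gave 10 and 20 calls, all higher. Scaling to the summed family gave 4, 6 and 8 calls under IgG and 6, 16 and 12 under anti-Dll4, in the order used in the report. The log2 fold change of Rpl4 between Kit+ CD45+ and Kit+ CD45- cells turned to 0.13 and 0.18 under library totals alone and to 0.044 and 0.048 on the scale of the summed family, that between Kit+ CD45- and Kit- CD41+ CD45- cells under anti-Dll4 to -0.063 there, and Rps2 turned to 0.063 under library totals alone.

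DESeq2 called 5 and 17 genes in the first and second pair under IgG, and upper-quartile factors 7 in the first. Without a filter on low counts the numbers were 0, 5 and, in the first pair under anti-Dll4, 25. Against a fold of 1.5 the test called 0, 0 and 1 under IgG and 0, 0 and 1 under anti-Dll4. Leaving out 1 library, or 1 replicate number in all groups, gave 0 to 8, 0 to 24 and 2 to 7 calls under IgG. Under anti-Dll4 it gave 6 to 49, 5 to 53 and 2 to 7. In the third pair under IgG the larger direction became higher without Kit+ CD45+ replicate 1 (4 calls) or 2 (5) or Kit- CD41+ CD45- replicate 4 (5). Chosen after the data were seen, leaving out the 3 libraries with Y-linked reads gave 1 call in the first pair under IgG and 21 under anti-Dll4, and leaving out the Kit+ CD45- libraries with the least and most globin gave 15 and 37 under IgG and 15 and 26 under anti-Dll4 in the first and second pairs.

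The labels do not say what the replicate numbers, or the leading numbers shared by the 3 populations of 1 antibody and replicate, stand for. The deviations of libraries that share them correlated by -0.22 to 0.14 between antibodies and -0.12 to 0.28 between populations, not all above 0.1. The 3 libraries with Y-linked reads share 1 leading number. They held 1 to 5 counts of X-linked Xist, against 1455 to 2705 in the other libraries. Whether populations with the same leading number come from the same embryos was not tested. With a replicate block for the antibody comparisons 0 genes were called, and with the block of leading numbers for the populations 5, 29 and 7 under IgG and 46, 51 and 5 under anti-Dll4. The cause of these shifts was not tested. Genes under 10 CPM, such as Rpl24, Rps16 and Rps29, rest on few counts, and intervals of counting error would not cover differences in amplification.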
